A study of Homo sapiens with 6 samples.

Results

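This report describes 32 genes of the NF-kB pathway in T24 cells, an established human bladder cancer cell line, after siRNA knockdown of circ235. The genes were chosen by name as Rel subunits, inhibitors of the IkB family, IkB kinases, receptors and adaptors upstream of them, feedback regulators and survival targets, without cytokines. They are 32 of the 58288 genes in the count table, and all 32 passed the filter on low counts that left 14415 genes for testing. The cells were transfected with a control siRNA (labelled siControl, called NC here), with siRNA1 (si-circ235-1) or with siRNA2 (si-circ235-2), the siRNAs being paired with the columns of the table by their numbers. Each condition had 2 libraries labelled as biological replicates, which gave 6 libraries in all, each from transfected cells. The labels do not say whether replicates came from separate transfections, so p-values measure the spread between these libraries, which may be technical. The siRNAs were directed at different sites of the same circular RNA, which is formed from exons of CCNY, and the comparison asked which genes respond to its loss in a cancer cell line. Messenger RNA was enriched with oligo dT beads, so the libraries do not measure the circle itself and give no check of its knockdown.

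NF-kB is a family of dimeric transcription factors built from Rel proteins. In resting cells the dimers are held in the cytoplasm by IkB proteins. Ligands such as tumor necrosis factor or interleukin-1 act through receptors, adaptors and ubiquitin ligases on the IkB kinases, which mark IkB for degradation and free the dimers to enter the nucleus. A slower route that uses NFKB2 and RELB is held in check by TRAF and BIRC proteins. The genes switched on include several of the inhibitors, so the pathway limits itself, together with adhesion, survival and antioxidant genes.

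NF-kB dimers bind a consensus decamer that starts with G and ends with C. This decamer was searched on both strands from 250 bases before to 50 bases after the RefSeq starts (GRCh38.p14) of each gene. Promoters were matched for 26 of the 32 genes, while RELB, NFKBIE, IER3, IKBKB, TNFRSF10B and RIPK2 had none. The decamer occurred at 1 or more starts of 13 of the 26 genes (50%), against 17.6% of the 10082 tested genes with a promoter and 13.3% of all 27305 genes with 1. Counted by start, it occurred at 35.6% of 45 starts of these genes and at 13.7% of 14665 starts of tested genes. The genes were chosen by name for this pathway, so a share above the background is no independent result. Windows of 30 bases are shown for genes on which the results turn (NFKBIZ, TNFAIP3, NFKBIB, BCL3, NFKBIA and TNIP1) and for the precursor genes NFKB1 and NFKB2, 1 window per gene, written 5′ to 3′ on the strand of the gene with the decamer in capitals.
NFKBIZ, chr3:101827757-101827786, plus strand: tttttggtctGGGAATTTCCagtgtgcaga
TNFAIP3, chr6:137867182-137867211, plus strand: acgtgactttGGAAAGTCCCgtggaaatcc
NFKBIB, chr19:38899931-38899960, plus strand: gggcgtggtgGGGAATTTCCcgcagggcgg
BCL3, chr19:44748700-44748729, plus strand: ccggctgcagGGGAAGTCCCggcgcccggc
NFKBIA, chr14:35404811-35404840, minus strand: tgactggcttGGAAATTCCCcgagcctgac
TNIP1, chr5:151081057-151081086, minus strand: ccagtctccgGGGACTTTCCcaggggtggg
NFKB1, chr4:102501300-102501329, plus strand: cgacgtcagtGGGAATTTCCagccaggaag
NFKB2, chr10:102394461-102394490, plus strand: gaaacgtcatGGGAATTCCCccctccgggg

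The decamer begins at position -223 from the start in NFKBIZ, -67 in TNFAIP3, -28 in NFKBIB, 3 in BCL3, -81 in NFKBIA, -42 in TNIP1, -49 in NFKB1 and -107 in NFKB2, where negative positions lie upstream of the start. The decamers of TNFAIP3 and NFKBIA match on the strand opposite to the gene, and those of BCL3 and NFKB2 match on both strands at once. In NFKBIB the match overlaps another on the opposite strand that starts 1 base later, and the same holds in NFKB2. A match describes these letters only and does not show binding in T24 cells.

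The libraries held 15373992 to 19912893 counts. Levels are given as CPM, which are counts scaled to a common library size with TMM factors. Epithelial keratins (KRT7, KRT8 and KRT18) were abundant in every library, with sums of the 6 epithelial markers between 3057 and 5566 CPM, whereas KRT19 and CDH1 were under 1 CPM. Of 8 urothelial markers 5 were under 1 CPM in all libraries, including the uroplakins UPK1A, UPK1B and UPK2, and UPK3A was at 0. PPARG was at 22.6 to 23.2 CPM in NC, 39.5 to 45.9 CPM under si-circ235-1 and 49.2 to 51.1 CPM under si-circ235-2. KRT18 had a mean of 1780.2 CPM in NC, 2286 CPM under si-circ235-1 and 1066 CPM under si-circ235-2 (n = 2 each). The immune markers PTPRC and CD3E were at 0 in all libraries. CD14 was at 2.82 to 2.87 CPM in NC, 9.94 to 11.0 CPM under si-circ235-1 and 1.72 to 2.12 CPM under si-circ235-2. The part of these shifts in the results was not tested. The endothelial markers summed to at most 2.62 CPM, and the fibroblast markers to at most 1.68 CPM.

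Most genes of the pathway were expressed in the NC libraries. CPM values, divided by transcript length in kilobases, were compared between genes in the NC libraries. NFKBIA, the classical IkB, had the highest level at 141 CPM per kb (percentile 96.6 among tested genes), followed by the survival gene BCL2L1 (115), the kinase IRAK1 (114) and the ubiquitin-binding inhibitor TNIP1 (101). Among the Rel subunits RELB (57.5), NFKB2 (52.2) and RELA (47.5) exceeded NFKB1 (8.01), and REL lay last of all 32 genes at 0.101 CPM per kb. SOD2 stood at 67.9 CPM per kb, a value that depends on its longest annotated transcript of 14266 bases.

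**Figure D1:**
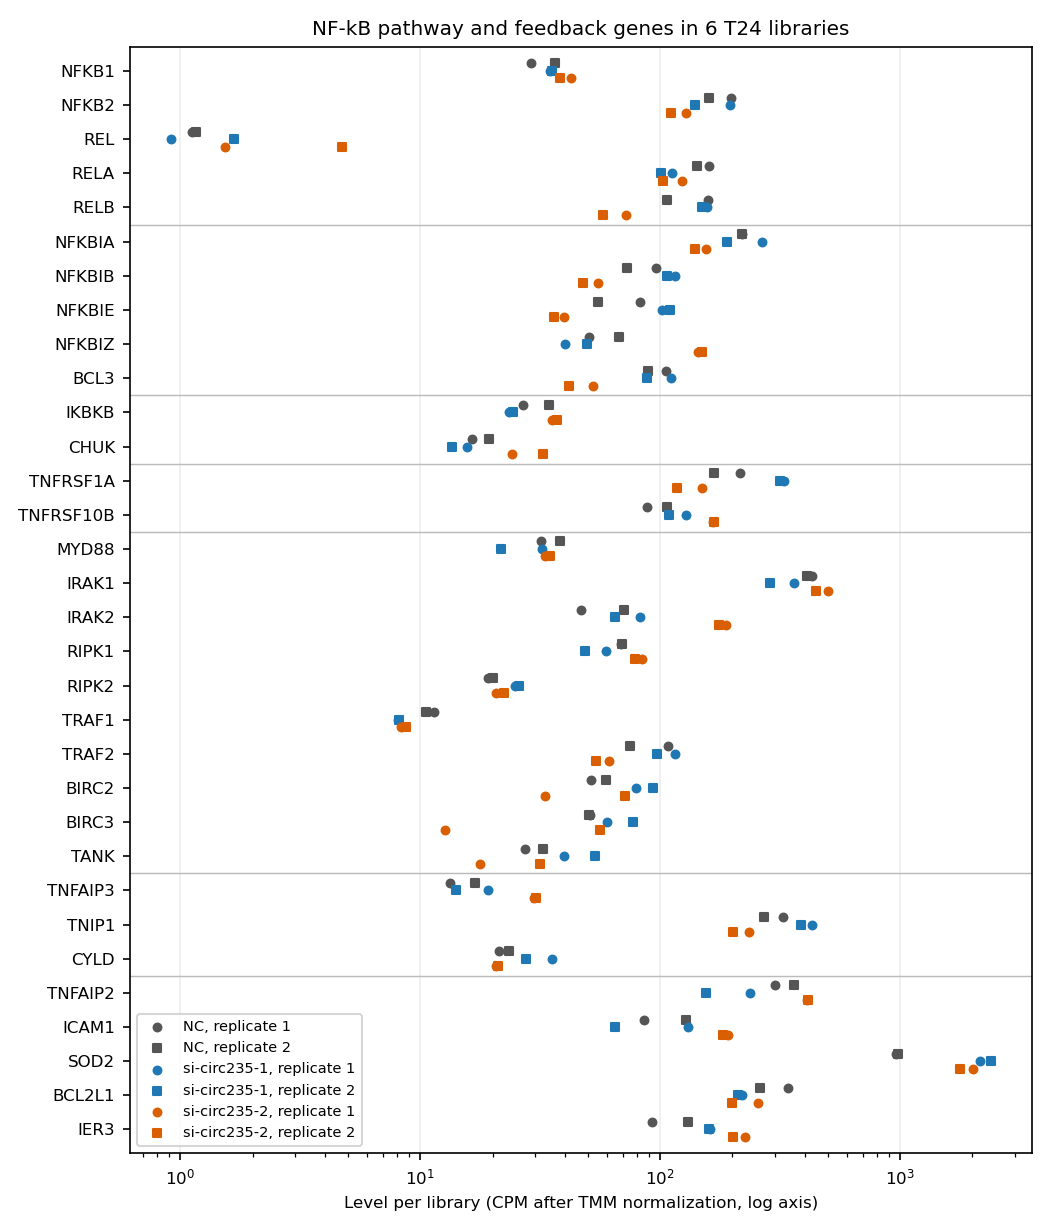
Level of each of the 32 genes in each library, as CPM after TMM normalization on a log axis, with genes grouped by role. Gray, blue and orange mark NC, si-circ235-1 and si-circ235-2, and circles and squares mark replicates 1 and 2. SOD2 has the highest CPM in every library, REL the lowest, and NFKBIZ and IRAK2 stand apart in the orange libraries.

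Each siRNA was compared with NC, and the siRNAs with each other, by the quasi-likelihood test of edgeR, with p-values adjusted over all 14415 genes by Benjamini-Hochberg. A gene was called at an adjusted p under 0.05, and log2 fold changes are given ± SE for 2 libraries against 2. Both siRNA comparisons used the same NC libraries. In bulk RNA, fewer cells that express a gene and less of its RNA per cell cannot be told apart.

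Under si-circ235-1, SOD2 was the only gene of the 32 that was called, and it rose. Of all genes tested, 2.24% were called higher and 3.64% lower. Unadjusted p was under 0.05 for 7 higher and 3 lower genes of the pathway, beside 11.1% and 14.2% of all genes, and DESeq2 called 2 higher and 1 lower. The share of all genes that DESeq2 called was not counted. Both si-circ235-1 libraries lay above both NC libraries for 12 genes and below for 9 (all genes, 26.2% and 28.8%). Under si-circ235-2, 6 genes rose (NFKBIZ, IRAK2, TNFAIP3, SOD2, IER3 and TNFRSF10B) and 5 fell (RELB, BCL3, NFKBIE, NFKBIB and TRAF2), a split that was 9 higher and 3 lower when TMM factors were left out. The background for this siRNA was 15.7% of all genes higher and 15.7% lower, so the counts of 6 and 5 among 32 lie near it. Both libraries lay above NC for 15 genes and below for 13 (all genes, 36.4% and 35%).

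In the direct comparison of the siRNAs, si-circ235-2 libraries had 9 genes at a higher and 10 at a lower level than si-circ235-1 libraries, beside 21.1% and 18.6% of all genes (39.7% in either direction). This split was 12 higher and 7 lower when TMM factors were left out. The libraries did not overlap for 14 genes that were higher and 15 that were lower, beside 38.4% and 33.7% of all genes. The median log2 fold change of the 32 genes was 0.17 under si-circ235-1 (all genes -0.03) and -0.07 under si-circ235-2 (all genes 0.00). Between the siRNAs it was 0.07 (all genes 0.04). In the comparisons with calls in both directions, genes of some roles went opposite ways, such as the IkB family.

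**Figure D2:**
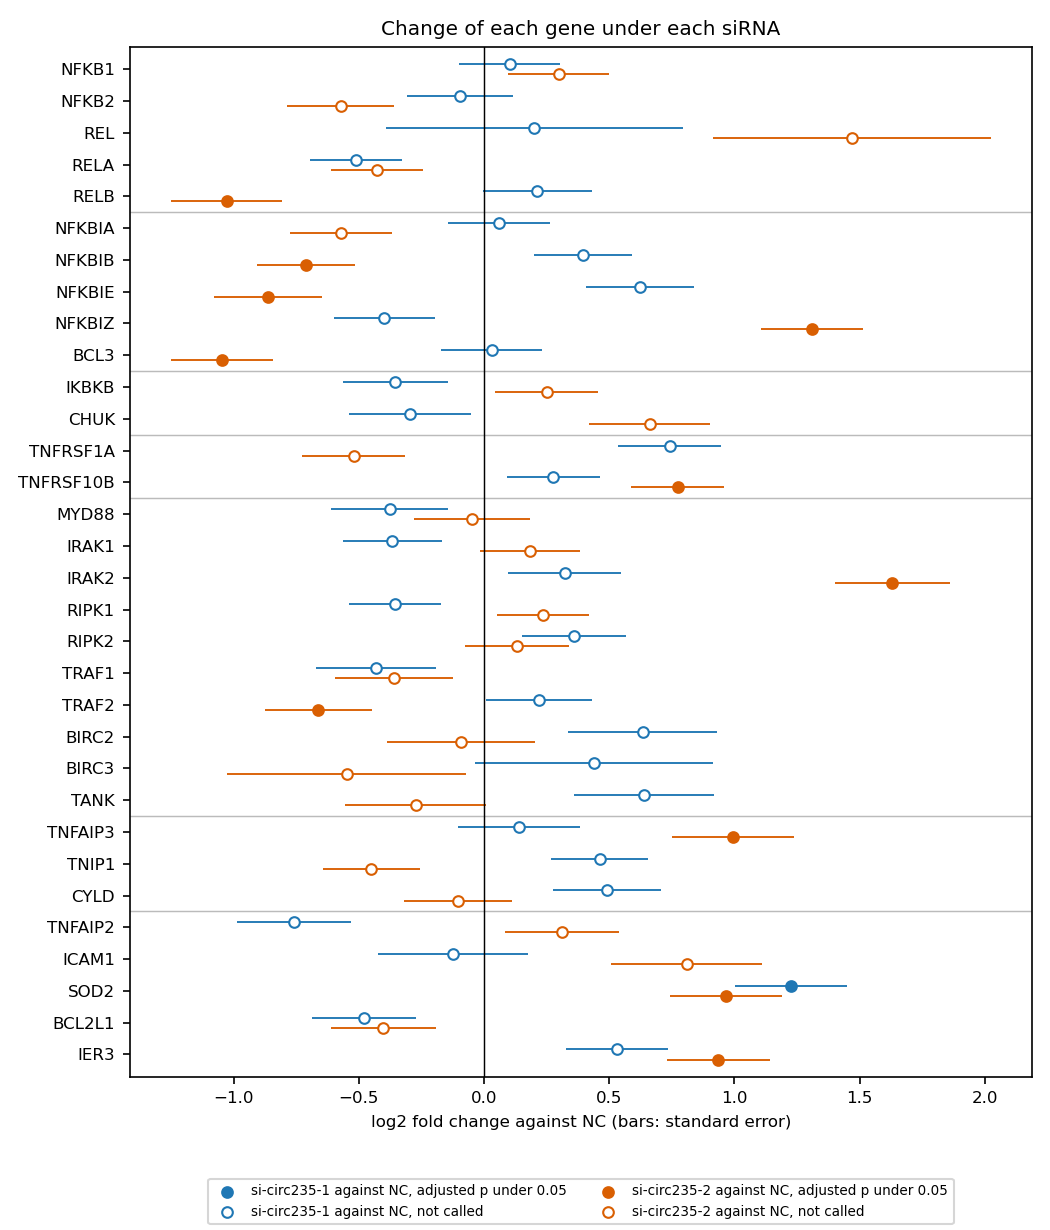
Log2 fold change of each gene against NC under si-circ235-1 (blue) and si-circ235-2 (orange), with bars for the standard error and filled points for an adjusted p under 0.05. SOD2 has the only filled blue point, whereas 11 orange points are filled, 6 to the right of 0 and 5 to the left.

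Among the 5 Rel subunits, RELB was the only gene called. RELB, the partner of processed NFKB2 in the slower route, stood at 158 and 106 CPM in NC, 156 and 149.5 CPM under si-circ235-1, and 71.9 and 57.5 CPM under si-circ235-2. Both si-circ235-2 libraries lay below the other 4. RELB fell 2.04-fold against NC (log2 -1.03 ± 0.22, adjusted p = 0.00685) and 2.36-fold against si-circ235-1 (log2 -1.24 ± 0.22, adjusted p = 0.00188).

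The other subunits were not called in any comparison. NFKB2 had 196 and 160.4 CPM in NC, 195 and 139 CPM under si-circ235-1, and 129 and 111 CPM under si-circ235-2, where the log2 difference from NC was -0.57 ± 0.21 (adjusted p = 0.0616). RELA, the transactivating subunit of the main dimer, had 160.2 and 142 CPM in NC, 112 and 101 CPM under si-circ235-1, and 123 and 102 CPM under si-circ235-2. All 4 siRNA libraries lay below both NC libraries, at log2 -0.51 ± 0.18 (adjusted p = 0.116) and -0.43 ± 0.18 (adjusted p = 0.0988).

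NFKB1 ranged from 28.9 to 42.3 CPM over all libraries, with both si-circ235-2 libraries above both NC libraries. REL was low and differed between replicates, with 1.12 and 1.16 CPM in NC, 0.909 and 1.67 CPM under si-circ235-1, and 1.53 and 4.73 CPM under si-circ235-2. The si-circ235-2 difference of log2 1.47 ± 0.56 was not called (adjusted p = 0.066), and the highest REL library held 99 counts. A gene on the same strand, AC010733.2, covers 43.3% of the REL exons and was listed with 0 counts.

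Of the 5 IkB family genes, 1 rose and 3 fell under si-circ235-2. NFKBIZ, a nuclear IkB protein induced by interleukin-1 and Toll-like receptor signals, stood at 50.6 and 67.3 CPM in NC, 40.0 and 49.4 CPM under si-circ235-1, and 143 and 149 CPM under si-circ235-2. Both si-circ235-2 libraries were far above the other 4. NFKBIZ rose 2.48-fold against NC (log2 1.31 ± 0.20, adjusted p = 0.00256) and 3.26-fold against si-circ235-1 (log2 1.71 ± 0.21, adjusted p = 0.000526).

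BCL3, a nuclear IkB protein that binds homodimers of the small subunits, moved the other way. It had 106 and 88.9 CPM in NC, 111 and 87.8 CPM under si-circ235-1, and 52.4 and 41.8 CPM under si-circ235-2, with no overlap between the last pair and the others. BCL3 fell 2.07-fold against NC (log2 -1.05 ± 0.21, adjusted p = 0.0049) and 2.11-fold against si-circ235-1 (log2 -1.08 ± 0.21, adjusted p = 0.00254).

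The cytoplasmic inhibitors NFKBIE and NFKBIB were higher than NC in both si-circ235-1 libraries and lower than NC in both si-circ235-2 libraries. NFKBIE stood at 82.5 and 54.9 CPM in NC, 102 and 110.1 CPM under si-circ235-1, and 39.5 and 36.0 CPM under si-circ235-2. Its difference from NC was log2 0.62 ± 0.21 under si-circ235-1, which was not called (adjusted p = 0.103), and -0.86 ± 0.22 under si-circ235-2, which was called (adjusted p = 0.0132). Between the siRNAs NFKBIE differed 2.8-fold (log2 -1.49 ± 0.22, adjusted p = 0.00095).

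NFKBIB stood at 95.8 and 72.7 CPM in NC, 115 and 107 CPM under si-circ235-1, and 55.1 and 47.7 CPM under si-circ235-2. Against NC the difference was log2 0.40 ± 0.19 under si-circ235-1 (adjusted p = 0.232) and -0.71 ± 0.20 under si-circ235-2 (adjusted p = 0.0198), and between the siRNAs it was -1.11 ± 0.20 (adjusted p = 0.00185). All 3 conditions were separate in both genes. The NFKBIB call against NC was lost without TMM factors and without si-circ235-2 replicate 2. It was also lost when NC replicate 1 was left out (log2 -0.51, adjusted p = 0.173), and when fold changes were adjusted for GC content and transcript length (-0.19, adjusted p = 0.291).

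NFKBIA, the inhibitor resynthesized soonest after activation, had 219 and 219 CPM in NC, 266 and 190.5 CPM under si-circ235-1, and 155 and 139 CPM under si-circ235-2. The si-circ235-2 libraries lay below all others. NFKBIA was lower than under si-circ235-1 (log2 -0.63 ± 0.20, adjusted p = 0.0297), while the difference from NC of -0.57 ± 0.20 just missed the threshold (adjusted p = 0.0528). The call between the siRNAs was lost without TMM factors and when fold changes were adjusted for GC content and transcript length. It was also lost without si-circ235-1 replicate 1 and without either si-circ235-2 library.

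The kinase genes IKBKB and CHUK, which encode the catalytic subunits of the IkB kinase, were not called against NC but differed between the siRNAs. CHUK stood at 16.4 and 19.4 CPM in NC, 15.7 and 13.5 CPM under si-circ235-1, and 24.01 and 32.6 CPM under si-circ235-2. It was higher under si-circ235-2 than under si-circ235-1 (log2 0.96 ± 0.24, adjusted p = 0.0104), and the difference from NC was 0.66 ± 0.24 (adjusted p = 0.0575). IKBKB had 26.7 and 34.3 CPM in NC, 23.4 and 24.3 CPM under si-circ235-1, and 35.2 and 37.3 CPM under si-circ235-2, with log2 0.60 ± 0.21 between the siRNAs (adjusted p = 0.0393).

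Of the receptors, TNFRSF10B, a receptor for the death ligand TRAIL, rose under si-circ235-2. It stood at 88.4 and 107 CPM in NC, 128 and 108 CPM under si-circ235-1, and 166 and 167 CPM under si-circ235-2 (log2 0.77 ± 0.19 against NC, adjusted p = 0.011). TNFRSF1A, the main receptor for tumor necrosis factor, had 216 and 168 CPM in NC, 327 and 314.5 CPM under si-circ235-1, and 149.98 and 118 CPM under si-circ235-2. The 3 conditions did not overlap. Neither difference from NC was called, at log2 0.74 ± 0.20 under si-circ235-1 (adjusted p = 0.0582) and -0.52 ± 0.20 under si-circ235-2 (adjusted p = 0.0742), but the siRNAs differed from each other 2.4-fold (log2 -1.26 ± 0.21, adjusted p = 0.00136). The rise under si-circ235-1 was called with DESeq2, without the filter, with only the conditions compared, with a replicate block and without either si-circ235-2 library. It was not called without TMM factors or without any NC or si-circ235-1 library.

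Among the 10 adaptors and ligases, IRAK2 had the largest change of all 32 genes under si-circ235-2. IRAK2 carries interleukin-1 and Toll-like receptor signals from MYD88 to TRAF6. It stood at 46.9 and 70.8 CPM in NC, 82.6 and 64.5 CPM under si-circ235-1, and 188 and 176 CPM under si-circ235-2, where both libraries were far above the other 4. IRAK2 rose 3.1-fold against NC (log2 1.63 ± 0.23, adjusted p = 0.00197) and 2.48-fold against si-circ235-1 (log2 1.31 ± 0.23, adjusted p = 0.00167).

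TRAF2, the adaptor that brings BIRC2 and BIRC3 to the receptors, fell under si-circ235-2. It had 108 and 74.5 CPM in NC, 115 and 97.4 CPM under si-circ235-1, and 61.0 and 54.1 CPM under si-circ235-2 (log2 -0.66 ± 0.21 against NC, adjusted p = 0.0365). Between the siRNAs the log2 difference was -0.88 ± 0.21 (adjusted p = 0.00832). Of the 6 analyses that left out a library, that without NC replicate 2 was alone in keeping the TRAF2 call against NC.

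Other adaptors differed between the siRNAs without a call against NC. IRAK1 had 427 and 407 CPM in NC, 359.96 and 288 CPM under si-circ235-1, and 501 and 446 CPM under si-circ235-2 (log2 0.55 ± 0.20 between the siRNAs, adjusted p = 0.0477). RIPK1, the scaffold kinase of the receptor complex, had 68.5 and 69.6 CPM in NC, 59.5 and 48.5 CPM under si-circ235-1, and 83.9 and 78.6 CPM under si-circ235-2 (log2 0.59 ± 0.18, adjusted p = 0.0255). Both genes lay below NC under si-circ235-1 and above NC under si-circ235-2 in every library. TANK, an adaptor that restrains TRAF signaling, had 27.2 and 32.5 CPM in NC, 39.7 and 53.4 CPM under si-circ235-1, and 17.7 and 31.6 CPM under si-circ235-2 (log2 -0.91 ± 0.28, adjusted p = 0.0245).

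MYD88, RIPK2, TRAF1, BIRC2 and BIRC3 were not called in any comparison. The neighboring ligase genes BIRC2 and BIRC3 differed between the si-circ235-2 replicates, and so, in the same direction, did REL, TANK and CHUK. BIRC3 had 12.7 CPM in replicate 1 and 56.3 CPM in replicate 2, whereas the NC libraries had 50.9 and 50.3 CPM. BIRC2 had 33.1 and 71.0 CPM in the same libraries, against 51.7 and 59.5 CPM in NC. TRAF1 was low throughout, between 8.04 and 11.3 CPM, and MYD88 and RIPK2 ranged from 19.2 to 38.3 CPM.

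The 3 feedback regulators did not move together. TNFAIP3, the ubiquitin-editing enzyme that ends receptor signals, stood at 13.3 and 16.9 CPM in NC, 19.2 and 14.1 CPM under si-circ235-1, and 29.8 and 30.4 CPM under si-circ235-2. Both si-circ235-2 libraries were above the other 4, and TNFAIP3 rose 1.99-fold against NC (log2 0.99 ± 0.24, adjusted p = 0.0117). It was also higher than under si-circ235-1 (log2 0.86 ± 0.24, adjusted p = 0.0169).

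TNIP1, the partner of TNFAIP3, went in the other direction. It had 324 and 270.1 CPM in NC, 431 and 387 CPM under si-circ235-1, and 234 and 200.7 CPM under si-circ235-2, with the 3 conditions apart (log2 -0.91 ± 0.20 between the siRNAs, adjusted p = 0.00463). CYLD, a deubiquitinase that opposes kinase activation, had 21.3 and 23.5 CPM in NC, 35.3 and 27.7 CPM under si-circ235-1, and 20.7 and 21.0 CPM under si-circ235-2 (log2 -0.60 ± 0.22 between the siRNAs, adjusted p = 0.0476). Neither was called against NC.

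Of the 5 targets, SOD2 was the gene that rose under both siRNAs, beside 0.784% of all genes. SOD2, the mitochondrial superoxide dismutase, stood at 961 and 976 CPM in NC, 2143 and 2392 CPM under si-circ235-1, and 2015 and 1769.7 CPM under si-circ235-2. All 4 siRNA libraries lay far above the NC libraries. The increase was 2.34-fold under si-circ235-1 (log2 1.23 ± 0.22, adjusted p = 0.0156) and 1.95-fold under si-circ235-2 (log2 0.97 ± 0.22, adjusted p = 0.0092), both against the same NC libraries. The siRNAs differed by log2 -0.26 ± 0.22 (adjusted p = 0.372), a difference whose sign turned without TMM factors. The call under si-circ235-1 was lost when either NC library or either si-circ235-1 library was left out (adjusted p between 0.0531 and 0.175), although the log2 fold change stayed between 1.15 and 1.30.

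IER3, an early response gene that modulates survival, had 92.3 and 130.4 CPM in NC, 162 and 159.7 CPM under si-circ235-1, and 226 and 200.4 CPM under si-circ235-2. The order NC, si-circ235-1, si-circ235-2 held in every library, and the rise under si-circ235-2 was called (log2 0.94 ± 0.20, adjusted p = 0.00736). An antisense transcript, IER3-AS1, covers 26.5% of the IER3 exons and was listed with 0 counts.

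TNFAIP2 and the adhesion molecule ICAM1 differed between the siRNAs. TNFAIP2, a target of tumor necrosis factor signaling, had 300.2 and 361 CPM in NC, 236 and 155 CPM under si-circ235-1, and 409 and 411 CPM under si-circ235-2. It was 2.1-fold higher under si-circ235-2 than under si-circ235-1 (log2 1.07 ± 0.23, adjusted p = 0.00455), and its difference from NC under si-circ235-1 was -0.76 ± 0.23 (adjusted p = 0.0732). ICAM1 had 85.5 and 128 CPM in NC, 131 and 64.7 CPM under si-circ235-1, and 191 and 182 CPM under si-circ235-2 (log2 0.93 ± 0.30 between the siRNAs, adjusted p = 0.0302, and 0.81 ± 0.30 against NC, adjusted p = 0.0623). The si-circ235-2 libraries were higher than all others for both genes. An antisense gene, AC011511.5, covers 22.0% of the ICAM1 exons and was listed with 41 counts over the 6 libraries. BCL2L1, which encodes a survival protein of mitochondria, ranged from 199 to 340.1 CPM and was not called. ABALON, an antisense gene, covers 43.0% of the BCL2L1 exons and was listed with 230 counts over the 6 libraries.

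With the 4 siRNA libraries taken as 1 group against NC, edgeR called 0 genes of the 32 and 0% of all genes in either direction. This fit treats the 2 siRNAs as replicates, so the difference between them enters the spread and limits the calls. In the separate comparisons with NC, 0.784% of all genes were called higher and 0.638% lower under both siRNAs. At an unadjusted p under 0.05 the pooled comparison held 2 higher genes (SOD2 and IER3) and 0 lower genes, beside 5.12% and 4.45% of all genes, and DESeq2 called 1 higher and 0 lower. When each siRNA kept its own mean and these were averaged, 3 of the 32 genes were called higher and 0 lower. The shares of all genes called by DESeq2 and by this averaged fit were not counted, so these counts have no background. All 4 siRNA libraries lay above both NC libraries for 4 genes and below for 3, beside 11.6% and 11.3% of all genes tested. The 4 genes were SOD2, IER3, TNFRSF10B and RIPK2, and the 3 genes were RELA, TRAF1 and BCL2L1, named after their values were seen.

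Changes under si-circ235-2 varied with GC content and transcript length across the whole table. Over 14386 genes with an annotated transcript, Pearson's r of the log2 fold change was -0.22 with GC content and 0.37 with log2 length. Over the 32 genes the same values were -0.43 and 0.46. Under si-circ235-1 they were -0.21 and 0.04 over all genes with a transcript, and -0.28 and 0.02 over the 32. Between the siRNAs they were -0.04 and 0.27 over all genes, and -0.21 and 0.38 over the 32. Each value is a correlation across genes measured in the same 4 libraries, and genes are not independent replicates. Among 10 bins of equal size by GC content, the highest (61.6% to 74.5%) had a median log2 fold change of -0.68 under si-circ235-2. The lowest bin (26.9% to 38.5%) was at -0.16, and the largest median, 0.33, lay at 43.3% to 45.8%. The 5 genes that fell had GC contents of 60.5% to 67.4% and transcripts of 2038 to 2581 bases. The 6 that rose had 41.7% to 58.5% and transcripts of 1350 to 14266 bases.

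**Figure D3:**
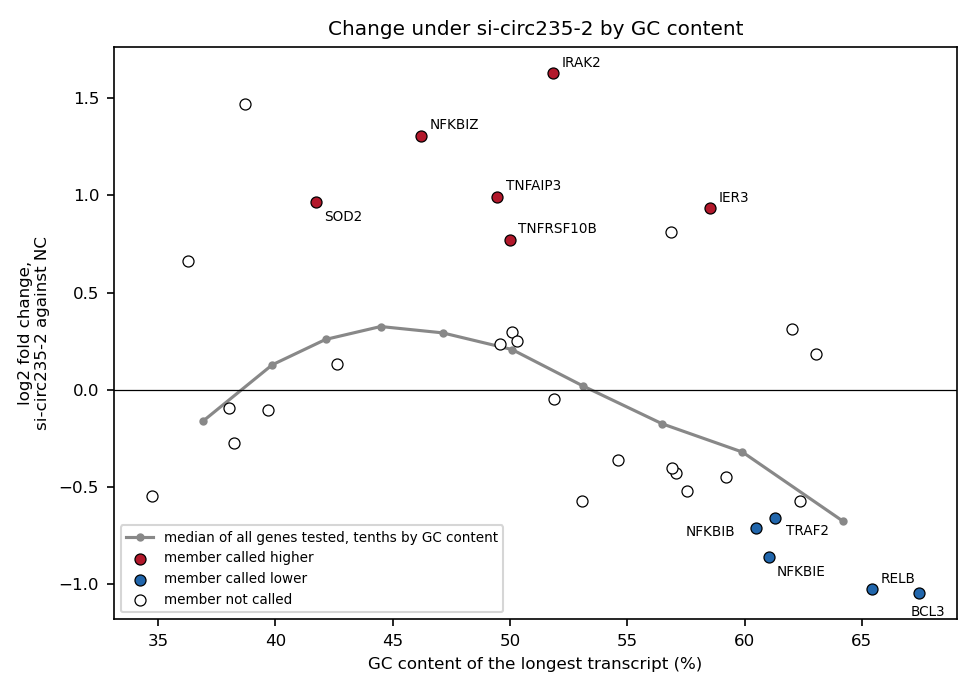
Log2 fold change under si-circ235-2 against the GC content of the longest transcript in percent, 1 point per gene of the pathway, with the gray line giving the median of all tested genes in 10 bins by GC content. The 5 genes that fell (blue) sit at the right, where the gray line reaches -0.68, and the 6 that rose (red) lie above the line.

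With a smooth trend over length and GC content removed from each library, 8 of the 11 calls against NC were lost under si-circ235-2. These were all 5 lower calls (RELB, NFKBIB, NFKBIE, BCL3 and TRAF2) and the higher calls of TNFRSF10B, TNFAIP3 and SOD2. RELB then stood at log2 -0.28 (adjusted p = 0.132) and BCL3 at -0.17 (adjusted p = 0.416). NFKBIZ (0.85, adjusted p = 0.00733), IRAK2 (1.42, adjusted p = 0.00357) and IER3 (1.48, adjusted p = 0.0044) were still called. The step also added 3 higher calls (CHUK, IRAK1 and ICAM1) and 1 lower call (TRAF1), so that 6 genes were higher and 1 was lower. Under si-circ235-1 the same step kept SOD2 and raised the count to 7 higher genes, among them NFKBIE (0.91, adjusted p = 0.0128), NFKBIB (0.64, adjusted p = 0.0148) and TNFRSF1A (0.95, adjusted p = 0.00485). Between the siRNAs it lost 6 of the 19 calls (NFKBIA, BCL3, IKBKB, RIPK1, TANK and TNFAIP3) and added others, which gave 7 higher and 10 lower genes. The share of all genes called after this step was not counted, so these counts cannot be set against a background.

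Leaving out NC replicate 1 lost 9 of the 11 calls under si-circ235-2, and NFKBIZ (log2 1.11, adjusted p = 0.0351) and IRAK2 (1.36, adjusted p = 0.0281) kept theirs. Between the siRNAs, RELB, NFKBIB, NFKBIE, NFKBIZ, TNFRSF1A, IRAK2 and TNIP1 were called in the analysis of all libraries and in every alternative that was run. Leaving out any library lost the calls of IRAK1 and CYLD, and leaving out any library but NC replicate 1 lost that of IKBKB. Without si-circ235-1 replicate 2, 9 of the 19 calls between the siRNAs were lost, including those of TNFAIP2, ICAM1, CHUK, RIPK1, TANK and TNFAIP3.

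**Figure D4:**
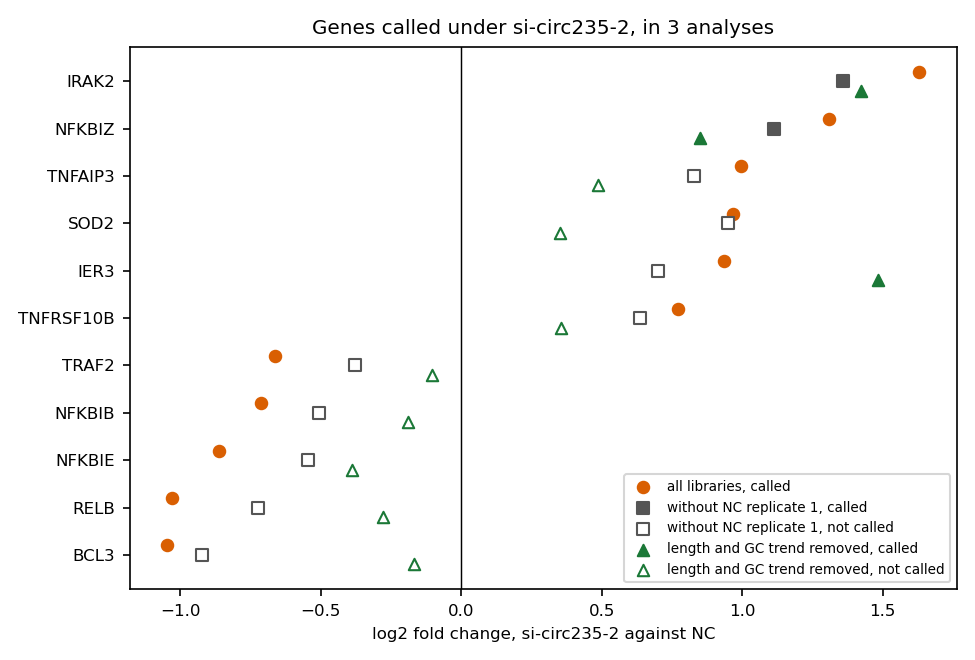
Log2 fold change under si-circ235-2 of the 11 called genes with all libraries (circles), without NC replicate 1 (squares) and after removal of the trend over length and GC content (triangles), filled where called. IRAK2 and NFKBIZ are filled in all 3 analyses, IER3 in 2, and the 5 genes on the left lie nearest to 0 after removal of the trend.

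The consensus decamer shown above was counted by direction of change. Under si-circ235-2 against NC it occurred in 2 of the 4 higher genes with a promoter (NFKBIZ and TNFAIP3), in 2 of the 3 lower genes (NFKBIB and BCL3) and in 9 of the 19 genes that were not called. Between the siRNAs it occurred in 3 of the 8 higher genes with a promoter, in 6 of the 8 lower genes and in 4 of the 10 genes that were not called. The promoters of IRAK2 and SOD2 held no decamer in the windows searched.

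The wider pathway was described with a list of 58 other genes, of which 51 could be tested. The genes that could not were TNFRSF1B, TLR4, TLR5, TNIP3, VCAM1, BCL2A1 and TNFRSF9. Under si-circ235-1, 1 gene rose and 2 fell, beside 2.24% and 3.64% of all genes. Under si-circ235-2, 11 rose and 5 fell, beside 15.7% of all genes in each direction, with a median log2 fold change of 0.31 over the 51 genes and 0.00 over all genes. By role these were 4 receptors higher, 6 adaptors or ubiquitin enzymes higher and 2 lower, 1 kinase in each direction and 2 targets lower. Between the siRNAs 16 were higher and 6 lower under si-circ235-2, beside 21.1% and 18.6% of all genes.

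IL1RAP, the accessory chain of the interleukin-1 receptor, rose under both siRNAs. It had 6.76 and 6.78 CPM in NC, 12.7 and 14.5 CPM under si-circ235-1, and 13.8 and 19.4 CPM under si-circ235-2 (log2 1.01 ± 0.26, adjusted p = 0.0465, and 1.29 ± 0.26, adjusted p = 0.00512). SHARPIN, a subunit of the linear ubiquitin ligase, fell under both, as did 0.638% of all genes. It had 174 and 116 CPM in NC, 75.3 and 74.5 CPM under si-circ235-1, and 74.2 and 61.0 CPM under si-circ235-2 (log2 -0.95 ± 0.22, adjusted p = 0.0335, and -1.10 ± 0.22, adjusted p = 0.00523). For both genes the 4 siRNA libraries lay clear of NC.

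TAB1, an activator of the kinase MAP3K7, fell under si-circ235-1 from 42.9 and 36.3 CPM in NC to 24.5 and 19.4 CPM (log2 -0.85 ± 0.21, adjusted p = 0.0442). The calls of IL1RAP, SHARPIN and TAB1 under si-circ235-1 were lost without NC replicate 1 and without either si-circ235-1 library, and those of IL1RAP and TAB1 also without NC replicate 2. IL1RAP was not called under si-circ235-1 without TMM factors either. Under si-circ235-2, TRAF6, the ligase downstream of the IRAK kinases, rose from 5.58 and 9.17 CPM to 19.1 and 22.6 CPM (log2 1.499 ± 0.28, adjusted p = 0.00443). Both si-circ235-2 libraries lay above both NC libraries for TRAF6, but its call was lost without NC replicate 1. IRAK3, an inhibitory member of the same kinase family, rose under si-circ235-2 from 0.656 and 0.672 CPM to 2.60 and 2.34 CPM (log2 1.88 ± 0.52, adjusted p = 0.0197), a level of at most 49 counts per library. This call was lost when any NC or si-circ235-2 library was left out. GADD45B, a stress-induced survival gene, fell from 54.7 and 41.3 CPM to 21.3 and 15.3 CPM (log2 -1.39 ± 0.24, adjusted p = 0.00311).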

How the data were processed

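T24 RNA, with 2 libraries per condition, was enriched with oligo dT beads and sequenced by the authors without strand information. The authors deposited unnormalized read counts for each gene. The submitters' processing notes name FastQC, cutadapt, STAR and hg38. The counter, its filters and the annotation were not given in the sources used here. Counting without strand can mix overlapping genes.

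Symbols, transcript lengths and GC content were taken from GENCODE release 29, which matched 99.5% of gene IDs. The analysis used edgeR 4.0.16 in R 4.3.3. Genes were filtered by condition with filterByExpr, scaled with TMM and tested by quasi-likelihood with a mean for each condition, and p-values were adjusted by Benjamini-Hochberg (threshold 0.05). All 6 libraries shared an estimate of the spread. The pooled comparison set the 4 siRNA libraries against NC. The alternatives were other tools (DESeq2 1.42.0), library totals in place of TMM, all genes unfiltered, fits of the compared conditions alone, a replicate block, removal of a spline trend (5 degrees of freedom) over length and GC content, and leaving out each library. Scripts were tested on simulated data.

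The genes and lists were chosen with earlier results of these data known. Genes were given in full where called, or where they encode Rel subunits, IkB proteins or IkB kinases. Other pathway genes were named where called alike under both siRNAs or among the 2 largest changes in each direction.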

Additional observations from a re-analysis of the deposited data

Results flagged for a closer look

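The effects of si-circ235-1 and si-circ235-2 against NC differed for 19 of the 32 genes by the direct test of si-circ235-2 against si-circ235-1 (edgeR's quasi-likelihood test, Benjamini-Hochberg adjustment over all 14415 genes, beside 39.7% of all genes called in either direction). Of the Rel subunits, RELB was lower (log2 -1.24). Of the IkB family, NFKBIZ was higher (1.71), while NFKBIE (-1.49), NFKBIB (-1.11), BCL3 (-1.08) and NFKBIA (-0.63) were lower. Both kinase genes were higher, CHUK by 0.96 and IKBKB by 0.60 on the log2 scale. TNFRSF1A was the receptor gene that was lower (-1.26). Of the adaptors, IRAK2 (1.31), RIPK1 (0.59) and IRAK1 (0.55) were higher, and TANK (-0.91) and TRAF2 (-0.88) were lower. Of the feedback regulators, TNFAIP3 was higher (0.86), and TNIP1 (-0.91) and CYLD (-0.60) were lower. The targets TNFAIP2 (1.07) and ICAM1 (0.93) were higher. In all 19 genes both si-circ235-2 libraries lay on the same side of both si-circ235-1 libraries. With the trend over length and GC content removed, 6 of these calls were lost (NFKBIA, BCL3, IKBKB, RIPK1, TANK and TNFAIP3).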

How the results depend on the processing

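Under si-circ235-1 the count of higher genes, 1 with all libraries, was 2 with DESeq2, without the filter and with the replicate block, 3 with only the conditions compared, and 7 after removal of the trend over length and GC, and the count of lower genes, 0, was 1 with DESeq2, without the filter and with only the conditions compared. Under si-circ235-2 the count of lower genes, 5, was 3 without TMM factors, 8 with the replicate block and 1 with the trend removed, where the gene was another (TRAF1). DESeq2 and the fit without the filter each gave 8 higher and 7 lower genes under this siRNA. Smaller changes of the counts are not all listed. The pooled count of 0 higher genes became 1 with DESeq2 and 3 when each siRNA kept its own mean and these were averaged. Shares of all genes called were counted only for the main edgeR fits, so counts under the alternatives have no background. Leaving out 1 library gave 0 to 2 higher and 0 to 1 lower genes under si-circ235-1, 2 to 8 and 0 to 5 under si-circ235-2, 2 to 8 and 7 to 10 between the siRNAs, and 0 and 0 in the pooled comparison. The lowest values came without NC replicate 1 under si-circ235-2 (2 higher and 0 lower) and without si-circ235-1 replicate 2 between the siRNAs (2 higher). SOD2 between the siRNAs turned to log2 0.073 without TMM factors. Without TMM factors the median of all genes shifted to -0.11, 0.25 and 0.37 in the 3 comparisons. The cause of these shifts was not tested.

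The replicate block lost 0 of the 31 called fold changes of pathway genes and made 4 others called. Same-numbered libraries deviated with correlations of -0.09 (NC and si-circ235-1), 0.15 and 0.14 (si-circ235-2 with NC and with si-circ235-1), so the numbers were not taken to pair the libraries. For the 8 fold changes of other pathway genes the same alternatives, chosen after seeing the data, lost 2 calls with the trend removed (SHARPIN and IRAK3 under si-circ235-2) and 7 without NC replicate 1, all but GADD45B, 3 without NC replicate 2 (IL1RAP and TAB1 under si-circ235-1 and IRAK3), 3 without either si-circ235-1 library, IRAK3 without either si-circ235-2 library, and IL1RAP under si-circ235-1 without TMM factors. With 2 libraries per condition, their number limits the precision, and at this depth counting error bears mainly on REL and IRAK3.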
